A study of Mus musculus with 6 samples.

Results

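The genes described are the secreted ligands, receptors, antagonists and feedback genes of the Wnt pathway in cells sorted from mouse embryos at E11.5. They are 57 listed symbols, matched to probe sets that the platform annotation assigns to exactly 1 gene symbol. Of these, 56 were measured among 18194 genes in all, and Tcf7 was not among the named probe sets. RNA came from EGFP-positive cells sorted from the intermediate mesoderm region, the tissue that forms kidneys and gonads. The 3 heterozygote samples carry EGFP on 1 allele (EGFP/+) and are labelled Pax2 heterozygote, and the 3 null samples carry it on both (EGFP/EGFP), by their titles, and are labelled Pax2 null. Pax2 encodes a transcription factor of the early kidney. No wild-type sample was analysed here, so every sample has lost at least 1 Pax2 allele, and what drives EGFP is not given in the sources used here.

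Wnt proteins are lipid-modified secreted signals that bind Frizzled receptors together with the co-receptors Lrp5 and Lrp6. In the canonical branch this stabilizes β-catenin, which acts with Tcf and Lef factors on target genes, several of which feed back on the pathway. R-spondins, through the Lgr receptors, protect Frizzled from the ubiquitin ligases Rnf43 and Znrf3, while Sfrp, Dkk, Wif1 and Notum proteins block or inactivate the ligand or its co-receptor. In the developing kidney, Wnt9b from the duct induces the mesenchyme, Wnt4 drives its change into epithelium, and Wnt11 marks the tips of the ureteric bud.

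Values are the deposited log2 intensities, 1 per probe set and array, and changes are null minus heterozygote on that scale with their standard error (SE). A gene was called changed at a limma adjusted p under 0.05 over all 18194 genes. The labels do not state whether litters or embryos were separate, so p-values measure the spread between these 6 samples, which may include technical spread. Array medians lay between 6.12 and 6.24, and correlations between arrays of a genotype between 0.976 and 0.991. Bacterial hybridization controls, spiked into the sample, matched the arrays into 3 pairs of 1 null and 1 heterozygote. In pair 1, null 3 was matched to heterozygote 1. In pair 2 it was null 1 with heterozygote 2, and in pair 3 null 2 with heterozygote 3. This pairing comes from the data and not from the labels. Pax2 levels are not analysed here and so give no check of the labels.

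Of the 56 genes, 3 rose and 1 fell in null cells, namely Wif1, Wnt3 and Notum on one side and the receptor gene Lgr5 on the other. That is 7.14% called, against 1.39% of all genes (0.808% higher and 0.583% lower). This list and those further on were chosen with earlier results of these data known, so the shares are descriptions and not tests. Between-genotype separation was more common than the calls, since 18 of the 56 (32.1%) had no overlap between genotypes, against 13.6% of all genes. These were 11 higher in null (6.49% of all genes) and 7 lower (7.16%). A change of at least 1 log2 unit was seen in 10 of them (17.9%), against 3.40% of all genes. The median change was 0.12, with 34 positive and 22 negative, and the median over all genes was -0.02. With the array pair as a block in limma, 14 passed (25.0%, against 4.53% of all genes). Of these, 10 were higher in null (2.65% of all genes) and 4 lower (1.88%), and they included all 4 genes called without the block. The 4 calls were reduced to Wif1 and Wnt3 without heterozygote 2, heterozygote 3 or null 2. Without null 1, Lgr5 and Notum were lost and Wnt10a passed. Without null 3, Lgr5 was lost and Wnt10a and Wnt8b passed. No call was left without array pair 2 or 3.

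**Figure D1:**
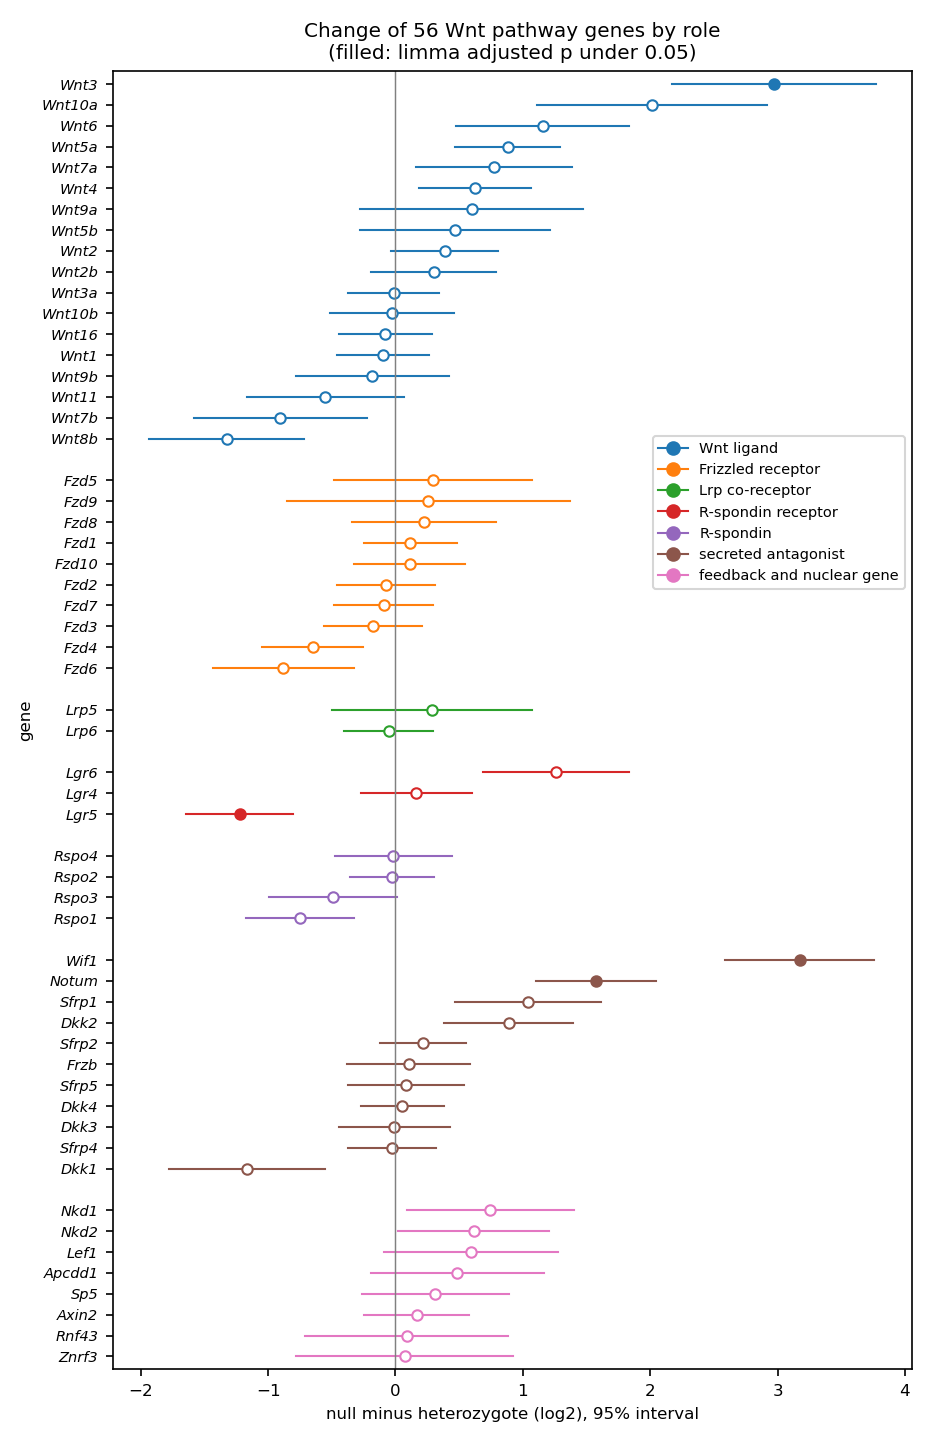
Change (null minus heterozygote, log2, x axis) of the 56 measured genes, grouped by role, with unadjusted 95% intervals from limma. Filled points passed at an adjusted p under 0.05. Wnt3, Wif1 and Notum lie to the right and Lgr5 to the left, while Frizzled, Lrp and feedback genes all lie within 1 log2 unit of 0.

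Among the 18 ligands only Wnt3 passed. Wnt3, a canonical ligand known for its part in gastrulation and limb outgrowth, was 4.41, 3.51 and 3.96 in heterozygotes 1 to 3 and 6.22, 7.15 and 7.42 in nulls 1 to 3 (log2). Every null array lay above every heterozygote array, with a gap wider than the range within either genotype. The means were 3.96 ± 0.45 and 6.93 ± 0.63 (SD, n = 3 each), a change of 2.97 ± 0.35 (SE), or 7.84-fold (limma, adjusted p = 0.00996). The heterozygote mean lay under the 33rd percentile of probe sets (4.81), where RMA compresses differences, so the size of the change is uncertain. Wnt3 passed whichever of the 6 arrays was omitted, with limma adjusted p between 0.00878 and 0.0490. Wnt3 has 1 probe set, whose _x_at suffix marks probes that can also bind similar sequences.

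Wnt3 lies beside Wnt9b on chromosome 11, with 0 protein-coding genes between them in RefSeq, and their gene models overlap at the 5′ ends on opposite strands. Their promoters are shown because 1 of the neighbours passed and the other did not. Wnt9b was 9.89, 9.30 and 9.93 in heterozygotes and 9.24, 9.99 and 9.35 in nulls, and these values overlapped. Its change was -0.18 ± 0.26 (95% interval -0.78 to 0.42), which did not pass (limma, adjusted p = 0.978). The interval for Wnt3 was 2.17 to 3.77, and the difference between these changes was not itself tested. The windows below hold the 250 bases before the RefSeq start site (GRCm38.p6), at chr11:103773925-103774174, plus strand, and chr11:103749822-103750071, minus strand, each 5′ to 3′ on the gene's strand. Capitals mark CAAAG, the core of the Tcf/Lef motif, on either strand (CTTTG on the opposite one). The start site used for Wnt9b, and for Axin2 further on, lies inside the longest RefSeq gene model.
Wnt3: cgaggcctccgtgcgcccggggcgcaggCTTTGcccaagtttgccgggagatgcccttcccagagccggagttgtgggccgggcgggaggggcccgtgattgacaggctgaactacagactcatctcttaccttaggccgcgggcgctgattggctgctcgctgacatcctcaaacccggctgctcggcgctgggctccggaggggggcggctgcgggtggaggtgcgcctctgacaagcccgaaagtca
Wnt9b: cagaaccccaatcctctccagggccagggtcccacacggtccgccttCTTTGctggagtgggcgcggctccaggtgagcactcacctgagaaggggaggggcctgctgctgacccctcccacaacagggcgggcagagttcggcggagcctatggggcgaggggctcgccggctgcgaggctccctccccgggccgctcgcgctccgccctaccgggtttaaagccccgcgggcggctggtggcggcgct
Each window held 1 match, starting 222 bases before the start site in Wnt3 and 203 in Wnt9b. Such a match was found in 48.6% of 32851 promoter windows of this length and in 19 of 46 windows of the listed genes (41.3%), so these letters do not set the genes apart. The longer ATCAAAG, which contains the core, was found in neither window, in 3.21% of all windows and in 3 of the 46 (6.52%).

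Wnt10a and Wnt6 are the other neighbours with large changes, adjacent on chromosome 1 with 0 protein-coding genes between them. Wnt10a, a ligand of ectodermal and limb epithelium, was 4.997, 4.65 and 4.60 in heterozygotes and 5.96, 6.66 and 7.68 in nulls. Wnt6, which is expressed in the ureteric bud and in surface ectoderm, was 8.65, 7.82 and 8.25 in heterozygotes and 8.84, 9.70 and 9.65 in nulls. Neither gene's arrays overlapped between genotypes, though heterozygote 1 and null 1 of Wnt6 were close. The changes were 2.02 ± 0.39 for Wnt10a (limma, adjusted p = 0.0583) and 1.16 ± 0.29 for Wnt6 (adjusted p = 0.139), and neither passed. The heterozygote mean of Wnt10a (4.75) lay under the 33rd percentile, so the size of its change is uncertain. With the array pair as a block both passed (limma, adjusted p = 0.0184 and 0.0133). Wnt10a also passed without null 1 or null 3 (limma, lowest adjusted p = 0.0349), but not without any other single array. The other probe set of Wnt6 had a change of 1.12 and passed in the fit of single probe sets (limma, adjusted p = 0.0280).

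Neither of the remaining neighbour pairs held a call. On chromosome 15, Wnt1 and Wnt10b had changes of -0.10 ± 0.16 and -0.02 ± 0.21, with mean values under the 33rd percentile, and on chromosome 11 Wnt3a and Wnt9a had -0.01 ± 0.15 and 0.60 ± 0.38. Of these 4 genes 0 passed in limma, and 0 had an unadjusted p under 0.05 or passed with the pair as a block.

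**Figure D2:**
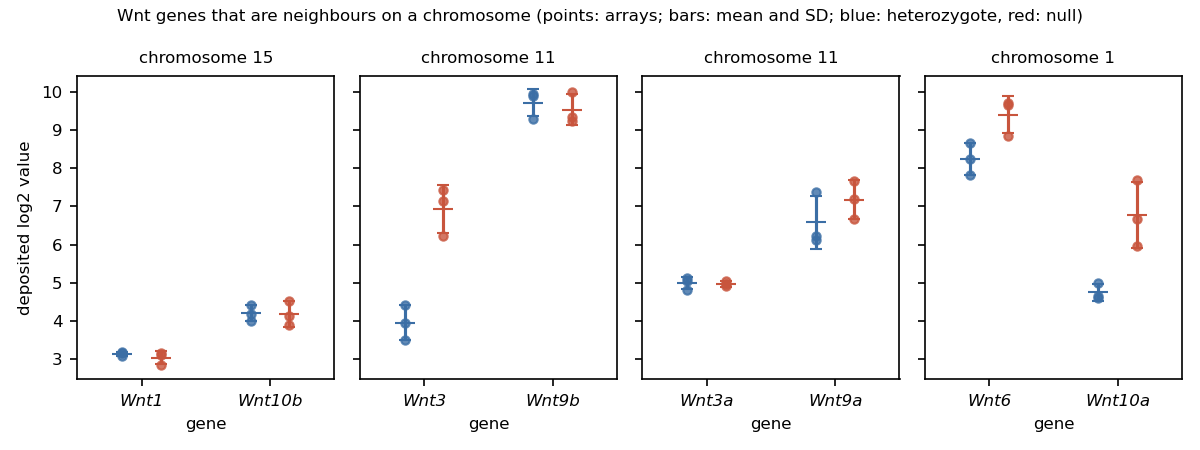
Deposited log2 values (y axis) of 4 pairs of Wnt genes that are adjacent on a chromosome. Points are arrays, blue for heterozygote and red for null, and bars are the mean and SD of 3 arrays. Wnt3 and Wnt10a are separated between genotypes by more than their SDs, whereas Wnt9b, beside Wnt3, overlaps.

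Wnt5a, the main ligand of the non-canonical branch, was 8.42, 8.64 and 8.42 in heterozygotes and 9.37, 9.63 and 9.13 in nulls. All null arrays were higher, the change was 0.88 ± 0.18 (limma, adjusted p = 0.0679, or 0.0334 blocked by pair), and each of its 4 probe sets had a positive change. One of those, with a change of 0.92, passed in the fit of single probe sets (limma, adjusted p = 0.0492). Wnt4 was 9.64, 9.41 and 9.34 in heterozygotes and 10.31, 10.17 and 9.77 in nulls. Its change of 0.62 ± 0.19 did not pass (limma, adjusted p = 0.242). These arrays did not overlap, but the change within pair 1 was 0.13, against 0.90 and 0.83 in pairs 2 and 3.

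Wnt8b, best known from the forebrain, had the most negative change of the ligands. Its arrays read 7.26, 7.43 and 7.58 in heterozygotes and 5.90, 5.70 and 6.70 in nulls, again without overlap. The change was -1.32 ± 0.26 (limma, adjusted p = 0.0639, or 0.0560 blocked by pair), and all 3 probe sets were negative. It passed without null 3 (limma, adjusted p = 0.0176). Wnt8b lies on chromosome 19 near Pax2, the targeted gene, with 3 protein-coding genes between them. Of those 3, the 2 that were measured, Ndufb8 and Hif1an, had changes of 0.04 and 0.17 and did not pass (limma, adjusted p = 0.992 and 0.926). The part of this position in the result was not tested.

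Wnt11 and Wnt7b, both of the ureteric bud, had negative changes that did not pass. Wnt11 was 7.44, 6.60 and 7.11 in heterozygotes and 6.08, 6.76 and 6.65 in nulls, which overlapped, with a change of -0.55 ± 0.27. Wnt7b, a signal of the duct stalk that patterns the medulla, was 5.89, 6.39 and 6.74 against 4.94, 5.85 and 5.53, with a change of -0.90 ± 0.29 (limma, adjusted p = 0.283). Its arrays did not overlap, but by a margin smaller than the range within either genotype. Of the ligands not yet described, Wnt7a (0.77 ± 0.27), Wnt5b (0.47 ± 0.32), Wnt2 (0.39 ± 0.18), Wnt2b (0.30 ± 0.21) and Wnt16 (-0.08 ± 0.16) also did not pass. The other probe sets of Wnt7a, both dim, had changes of -0.16 and -0.06. Across the 18 ligands the median change was 0.34, with 10 positive and 8 negative.

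**Figure D3:**
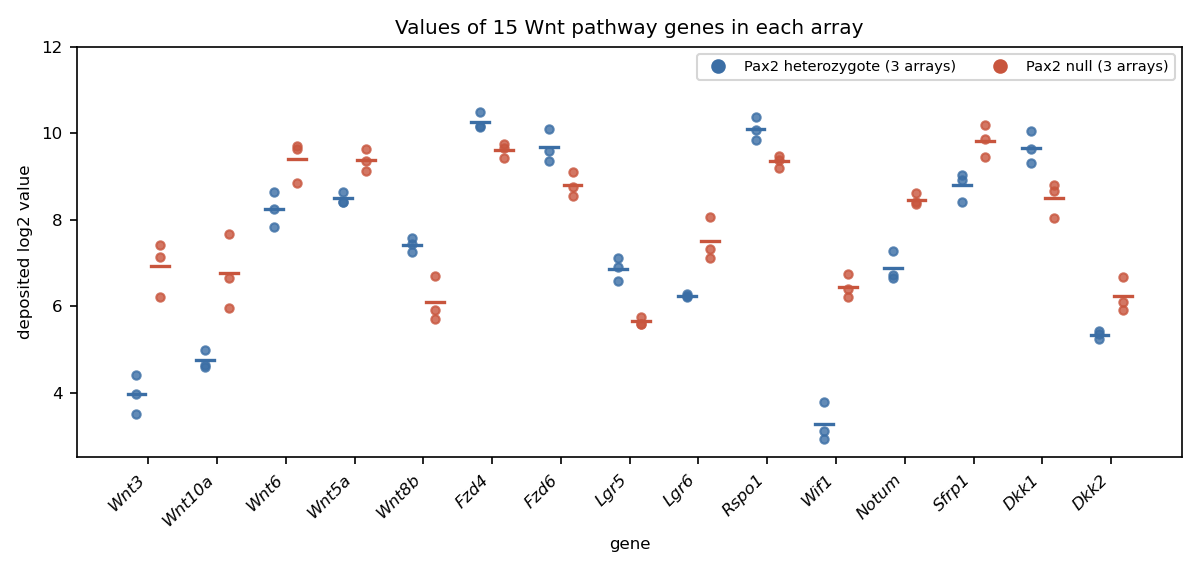
Deposited log2 values (y axis) in each of 6 arrays for the 15 genes that passed limma, had an unadjusted p under 0.01 or changed by at least 1 log2 unit. Points are arrays, horizontal lines the mean of 3, blue heterozygote and red null. The genotypes do not overlap in any of the 15 genes, but only Wnt3, Lgr5, Wif1 and Notum passed. The 15 genes were chosen by their change in these same arrays, so the lack of overlap is no separate evidence.

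No Frizzled or Lrp gene was called. Of 10 Frizzled genes 0 passed in limma, 2 had an unadjusted p under 0.05 and the same 2, Fzd4 and Fzd6, were lower in null with the pair as a block. Fzd4, which also serves as the receptor for norrin, was 10.48, 10.17 and 10.14 in heterozygotes and 9.44, 9.66 and 9.75 in nulls. Its change was -0.65 ± 0.17 (limma, adjusted p = 0.153, or 0.0408 blocked by pair), and all 3 probe sets were negative. Fzd6, which acts in planar cell polarity, was 10.11, 9.36 and 9.58 in heterozygotes and 8.54, 8.76 and 9.11 in nulls. Its change of -0.88 ± 0.24 (limma, adjusted p = 0.175, or 0.0151 blocked by pair) was between -1.002 and -0.82 within the 3 pairs.

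For the 8 other Frizzled genes the changes ran from -0.18 in Fzd3 to 0.30 in Fzd5. Fzd2, whose probe set had the highest mean of the family, was 11.23, 11.02 and 10.86 in heterozygotes and 10.85, 10.92 and 11.12 in nulls, fully overlapping. The 95% interval of its change was -0.46 to 0.31, and its other 2 probe sets had changes of the opposite sign (0.14 and 0.20). Fzd9 had the widest interval, from -0.85 to 1.37, with null 2 at 6.43 against 4.32 and 4.89 in the other nulls. The co-receptor Lrp6 was 10.91, 10.99 and 10.96 against 10.79, 10.85 and 11.06, with an interval of -0.40 to 0.29, and Lrp5 had one of -0.50 to 1.07. Of these 2 genes 0 passed in limma, with or without the block, and 0 had an unadjusted p under 0.05.

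Of the 3 R-spondin receptors, Lgr5 fell and the other two did not pass. Lgr5, a Wnt target that marks stem cells in several epithelia and early nephron cells in the kidney, was 6.59, 7.13 and 6.90 in heterozygotes and 5.60, 5.76 and 5.58 in nulls. The null arrays lay within a narrow band below all heterozygotes. The means were 6.87 ± 0.27 and 5.65 ± 0.10 (SD, n = 3 each), 2.34-fold lower in null (limma, adjusted p = 0.0206, or 0.0126 blocked by pair). The call was lost without heterozygote 2, heterozygote 3 or any of the nulls (limma, adjusted p up to 0.0980). It was also lost when the mean of its 2 probe sets was used (adjusted p = 0.271), the other probe set being dim with a change of -0.27. Lgr6, a marker of stem cells in skin, was 6.24, 6.22 and 6.27 in heterozygotes and 7.11, 7.33 and 8.07 in nulls. Heterozygotes agreed closely and every null array was higher, but the change of 1.26 ± 0.25 did not pass (limma, adjusted p = 0.0606, or 0.0332 blocked by pair). Lgr4, the receptor with the broadest expression, was 9.97, 9.48 and 9.56 against 9.75, 9.71 and 10.04, with a change of 0.16 ± 0.19. Its other probe set had a change of -0.07.

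None of the 4 R-spondin genes passed. Rspo1, which is expressed in the coelomic epithelium and supports ovary formation and early nephron progenitors, was 9.85, 10.37 and 10.08 in heterozygotes and 9.19, 9.49 and 9.38 in nulls. The genotypes did not overlap, and the change was -0.75 ± 0.18 (limma, adjusted p = 0.128, or 0.0764 blocked by pair). Rspo3, the R-spondin that acts with Rspo1 in nephron progenitors, had a change of -0.49 ± 0.22, and Rspo2 and Rspo4 had -0.03 ± 0.14 and -0.02 ± 0.20. Rspo2 lay under the 33rd percentile, and its other probe set had a change of 0.09. Negative changes made up 53.6% of all genes. Of the 4, 0 passed in limma with or without the block, and 1 had an unadjusted p under 0.05.

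Secreted antagonists held 2 of the 4 calls. Wif1, which binds Wnt ligands outside the cell, was 3.79, 2.93 and 3.12 in heterozygotes and 6.40, 6.22 and 6.74 in nulls. The lowest null array was more than 2 log2 units above the highest heterozygote array. The means were 3.28 ± 0.45 and 6.45 ± 0.26 (SD, n = 3 each), a change of 3.17 ± 0.25, or 9.02-fold (limma, adjusted p = 0.00332). This was the largest change of the 56, and within the pairs it was 2.95, 3.47 and 3.10. The heterozygote mean again lay under the 33rd percentile, so its size is uncertain. Wif1 passed whichever of the 6 arrays was omitted (limma, highest adjusted p = 0.0233). Its promoter window, at chr10:121033754-121034003, plus strand, is shown because Wif1 had the largest change of the listed genes, with CAAAG in capitals on either strand.
Wif1: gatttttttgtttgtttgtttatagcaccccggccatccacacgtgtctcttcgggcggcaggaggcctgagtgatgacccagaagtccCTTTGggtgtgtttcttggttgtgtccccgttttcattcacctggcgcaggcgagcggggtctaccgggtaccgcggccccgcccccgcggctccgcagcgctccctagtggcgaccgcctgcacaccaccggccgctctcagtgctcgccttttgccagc
The 1 match starts 161 bases before the start site, and the window holds no ATCAAAG.

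Notum, an enzyme that removes the lipid from Wnt proteins and is itself a Wnt target, was 7.29, 6.73 and 6.66 in heterozygotes and 8.38, 8.62 and 8.41 in nulls. Every null array was more than 1 log2 unit above the highest heterozygote. The means were 6.89 ± 0.34 and 8.47 ± 0.13, a change of 1.58 ± 0.20, or 2.98-fold (limma, adjusted p = 0.0125). Without heterozygote 2, heterozygote 3, null 1 or null 2 it no longer passed (limma, adjusted p up to 0.0646).

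Sfrp1, which sequesters Wnt ligands, was 9.05, 8.41 and 8.93 in heterozygotes and 9.44, 9.88 and 10.19 in nulls. The change was 1.04 ± 0.25 (limma, adjusted p = 0.116, or 0.00967 blocked by pair) and lay between 0.95 and 1.14 within the pairs. All 5 probe sets were positive, from 1.04 to 1.45, and the one at 1.30 passed in the fit of single probe sets (limma, adjusted p = 0.0181). Dkk1, which blocks Lrp5 and Lrp6, had a negative change, at 10.06, 9.30 and 9.65 in heterozygotes and 8.04, 8.68 and 8.80 in nulls. Its change was -1.16 ± 0.27 (limma, adjusted p = 0.104, or 0.00958 blocked by pair), and its second probe set, also at -1.16, passed singly (limma, adjusted p = 0.0411). Dkk2, which can block or weakly activate the pathway, was 5.36, 5.43 and 5.23 in heterozygotes and 6.68, 5.91 and 6.09 in nulls. It differed by 0.89 ± 0.22 (limma, adjusted p = 0.128, or 0.0387 with the block). None of these 3 genes had overlapping genotypes.

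For Sfrp2, also an inhibitor of Wnt ligands, the arrays read 10.62, 10.73 and 10.62 against 10.99, 10.80 and 10.83. The arrays did not overlap, and the change was 0.22 ± 0.15, which did not pass. The 5 other antagonists, Frzb, Sfrp5, Dkk4, Dkk3 and Sfrp4, had changes between -0.03 and 0.10. Dkk4 and Sfrp4 were under the 33rd percentile in both genotypes, where RMA compresses differences.

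Feedback and nuclear genes, which report on canonical signalling in many tissues, did not pass. The 8 measured genes all had positive changes, with a median of 0.40, where 46.4% of all genes were positive. In limma 0 of the 8 passed, 2 had an unadjusted p under 0.05, and with the block 1 passed. In the probe sets used, none of the 8 had arrays that were separate between genotypes. Some dimmer probe sets of Lef1, Nkd1, Nkd2 and Apcdd1 were separate and higher in null, whereas those of Axin2 and Znrf3 overlapped. None of the separate ones passed in the fit of single probe sets (limma, lowest adjusted p = 0.289). Axin2, the most widely used target gene, was 10.12, 9.71 and 9.69 in heterozygotes and 10.10, 9.86 and 10.08 in nulls. These values overlapped, and the change of 0.17 ± 0.18 had a 95% interval of -0.24 to 0.58. A rise above 0.58 log2 units thus lay outside the interval for this probe set. Axin2 had a larger change in its other probe set, at 0.30 ± 0.23 (limma of single probe sets, adjusted p = 0.929). Its promoter window, at chr11:108920099-108920348, plus strand, is shown as that of the standard target and held no CAAAG on either strand, which says only that these letters are not in these 250 bases.
Axin2: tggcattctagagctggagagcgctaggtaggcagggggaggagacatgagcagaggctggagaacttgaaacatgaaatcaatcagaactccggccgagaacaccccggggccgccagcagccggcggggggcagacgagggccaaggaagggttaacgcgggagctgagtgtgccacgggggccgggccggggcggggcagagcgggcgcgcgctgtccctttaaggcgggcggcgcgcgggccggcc

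Nkd1, which binds Dishevelled and dampens the signal, was 7.89, 8.16 and 8.53 in heterozygotes and 9.12, 9.34 and 8.36 in nulls. Null 3 lay within the heterozygote range. The change was 0.75 ± 0.28 (limma, adjusted p = 0.414, or 0.0456 blocked by pair), with 4 of 4 probe sets between 0.75 and 0.82. Its relative Nkd2 had a change of 0.61 ± 0.26, the transcription factors Lef1 and Sp5 had 0.59 ± 0.30 and 0.31 ± 0.25, and the membrane antagonist Apcdd1 had 0.49 ± 0.29. The ubiquitin ligases Rnf43 and Znrf3 had 0.09 ± 0.34 and 0.07 ± 0.37, with intervals of -0.71 to 0.89 and -0.78 to 0.93 that are too wide to show a small difference.

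A separate list held 88 other genes of the pathway, from secretion to nuclear partners, of which 82 were measured. Of these, 4 rose and 0 fell (4.88%, against 1.39% of all genes), with a median change of 0.06. Prickle2, a planar cell polarity protein, was 7.82, 7.09 and 7.65 in heterozygotes and 8.94, 9.17 and 9.23 in nulls, a change of 1.59 ± 0.22 (limma, adjusted p = 0.0160). Daam2, a formin that links Dishevelled to actin, rose by 1.61 ± 0.27 (limma, adjusted p = 0.0341) and Dact1, a Dishevelled-binding regulator, by 1.49 ± 0.27 (adjusted p = 0.0442). Gpc4, a heparan sulfate proteoglycan of the cell surface, rose by 1.09 ± 0.19 (limma, adjusted p = 0.0351). In all 4 the genotypes were separate. With the block 13 of the 82 passed (15.9%, against 4.53% of all genes), 9 higher (2.65% of all genes) and 4 lower (1.88%). Leaving out 1 array ended the call of Gpc4 and of Dact1 in every case but heterozygote 1, that of Daam2 without heterozygote 2, heterozygote 3, null 1 or null 3, and that of Prickle2 without heterozygote 3, null 1 or null 2. The transcript of β-catenin, Ctnnb1, had a change of 0.03 ± 0.14, a value that does not measure the protein. Of the 11 nuclear genes, 0 passed in limma (2 at an unadjusted p under 0.05, 1 with the block). Among 13 other reported targets, 0 passed in limma (2 at an unadjusted p under 0.05). With the block, Ccn4 passed as higher (1.43 ± 0.47) and Myc as lower (-0.94 ± 0.24) in null (limma, adjusted p = 0.00856 and 0.0112).

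Within the 3 pairs, 23 of the 56 genes were higher in null each time (41.1%, against 19.1% of all genes) and 13 lower each time (23.2%, against 23.5% of all genes). The share of lower genes was thus near that of all genes. For genes whose genotypes do not overlap, such as the 4 called, any pairing of a null with a heterozygote array gives 1 direction, so the pair values below describe size only. The pair changes of Wnt3 were 3.01, 2.71 and 3.19, those of Notum 1.12, 1.65 and 1.95, and those of Lgr5 -1.01, -1.53 and -1.14. Wnt10a varied more, at 2.68, 1.31 and 2.06, and Wnt8b at -0.57, -1.53 and -1.88.

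**Figure D4:**
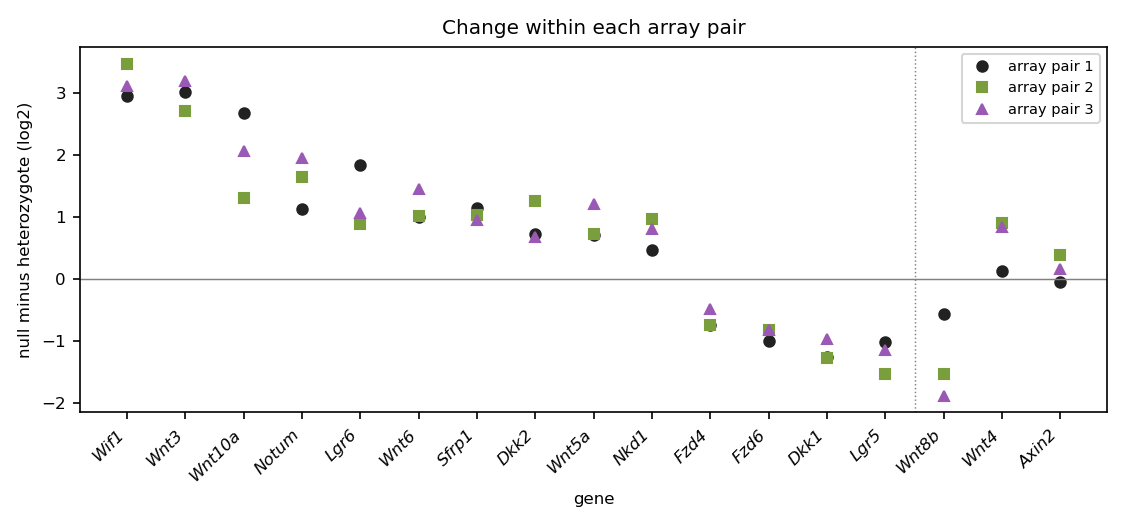
Null minus heterozygote (log2, y axis) within each of 3 array pairs, for the 14 genes that passed limma with the pair as a block and, right of the dotted line, for Wnt8b, Wnt4 and Axin2. Symbols are the pairs. The 14 genes were chosen by this fit, so that their pairs lie on 1 side of 0 is no separate evidence. The spread between pairs is wider for Wnt10a (1.31 to 2.68) than for Sfrp1 (0.95 to 1.14).

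Markers of several cell types differed between the same arrays. Over all 18194 genes, 0.808% were called higher and 0.583% lower, 4.53% passed with the block, and 1770 had an unadjusted limma p under 0.05. In these bulk samples, fewer cells of a type and less RNA per cell cannot be told apart. Over all 6 arrays, 13 of 13 duct and 12 of 12 progenitor genes had a mean above the 33rd percentile, as did 13428 of all 18194 genes. In nulls alone, the duct genes Calb1 and Elf5 had means of 4.52 and 3.71, under that limit (4.81). Of the surface ectoderm markers, 3 of 8 were called higher in null (Trp63, Krt5 and Grhl3), with a summed level of 10.01 to 10.26 in heterozygotes and 11.37 to 11.71 in nulls (log2 of summed linear values). In that list the keratin gene Krt14 was dim, at means of 4.33 and 4.49. Endoderm and urogenital sinus markers, sharing Trp63 and Krt5 with it, had 4 of 12 called higher and ranges of 9.15 to 9.41 and 11.06 to 11.14, while the urothelial genes Upk1b and Upk3a had changes of 0.04 and 0.33. These ranges were apart in the direction of every gene higher in null, so the direction assigns no Wnt gene to a list.

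Stromal markers had 6 of 14 called higher and separate ranges of 13.07 to 13.43 and 14.16 to 14.26. Duct markers had 6 of 13 called lower, at 13.75 to 14.33 against 13.10 to 13.51, although Epcam had a change of -0.06. Progenitor markers had 3 of 12 called lower and 1, Cited1, higher. Of the 12, 11 had negative changes, the median was -0.75, and 6 were lower with the block. Their sums overlapped (13.52 to 14.08 and 13.25 to 13.77). Cited1, with a change of 1.76, had the highest null mean of the list (11.39) and so weighs heavily in these sums. Gonad and adrenal markers had 1 of 8 called higher, at 9.27 to 9.30 against 10.28 to 10.57. Macrophage markers had 0 of 12 called in limma (7 at an unadjusted p under 0.05, 3 with the block), at 9.52 to 10.49 against 10.54 to 11.81. Neural markers had 1 of 12 called higher and 1 lower, with Sox2 at 3.13 and 3.18. Endothelial and erythroid markers had 0 of 10 and 0 of 6 called in limma, with 0 at an unadjusted p under 0.05 and 0 with the block. Their part in the Wnt changes was not tested.

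**Figure D5:**
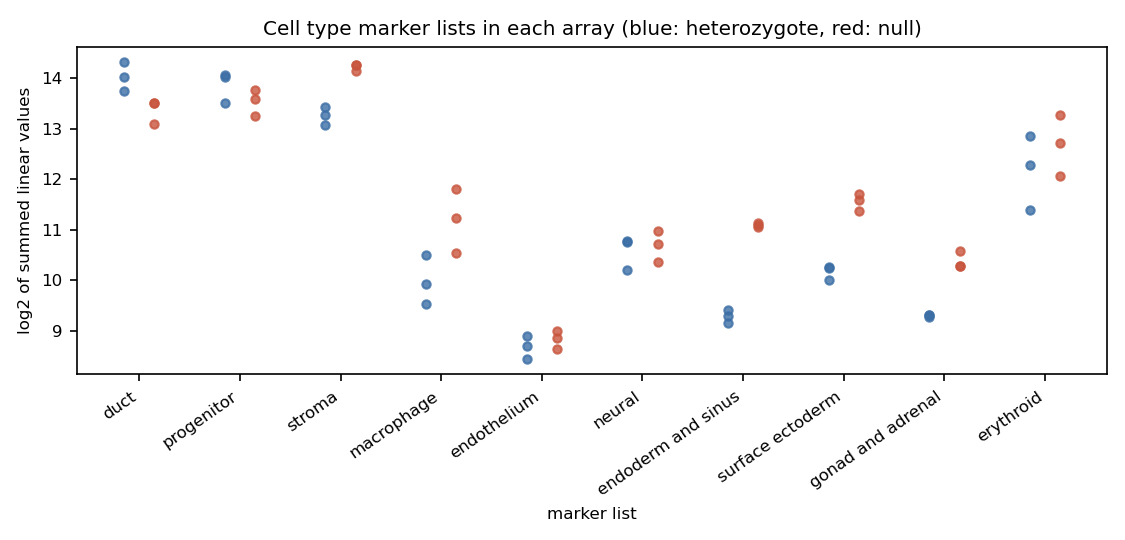
Summed level of each cell type marker list (y axis, log2 of the sum of linear values) in each array, blue for heterozygote and red for null. The stromal, macrophage, endoderm and sinus, surface ectoderm and gonad lists lie higher in every null array, the macrophage list by a narrow margin (10.54 against 10.49). The duct list lies lower, and the progenitor, endothelial, neural and erythroid lists overlap.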

How the data were processed

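Total RNA from sorted EGFP-positive cells (3 Pax2 heterozygote and 3 Pax2 null samples) was amplified from 10 ng and hybridized to a 1-colour array, per the labels' protocols. The authors deposited log2 values, 1 per probe set and array, and the submitters' processing notes name affy, RMA and limma without versions. RMA equalizes distributions between arrays and compresses dim differences, while its settings are not stated in these sources. The table held 45101 probe sets, 34958 of them with exactly 1 symbol, 932 with several and 9211 unnamed here. Each gene took its probe set with the highest mean. Null was compared with heterozygote in limma 3.58.1 (R 4.3.3, lmFit and eBayes, two-sided, no covariates, no filter on dim values), with Benjamini-Hochberg adjustment over 18194 genes. The fit was tested on simulated data. Precision is limited by the number of arrays.

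The members and lists were chosen with earlier results of these data known. Array values are given for members that passed, had an unadjusted p under 0.01 or changed by at least 1 log2 unit, for the member of each role with the highest mean, and for further members named for their known roles in the kidney or their position. Alternatives were other priors, array weights, median centring, a second quantile normalization, removal of genes under the 33rd percentile, means over probe sets, single probe sets, other thresholds, an unmoderated model, the array pair as a block, and omission of each array. Omission of each pair was added after the data were seen. Promoter windows and gene order came from RefSeq (GRCm38.p6), where 38 of the listed genes had a window.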

Additional observations from a re-analysis of the deposited data

How the results depend on the processing

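The 4 listed Wnt genes that changed became 7 with only genes above the 33rd percentile, 11 with array weights, 10 with means over probe sets, 8 at an adjusted p under 0.10, 2 at 0.01, 0 in the unmoderated model, 14 with the array pair as a block, 0 without array pair 2 or 3, and 2 to 5 with 1 array left out. The 4 other pathway genes became 7 with an intensity-dependent prior, the percentile filter or means over probe sets, 9 with array weights, 8 at 0.10, 0 at 0.01, 0 unmoderated, 13 with the block, 0 without pair 2 or 3, and 0 to 4 with 1 array left out. The 253 genes in all became 551 with array weights, 405 at 0.10, 51 at 0.01, 3 unmoderated, 824 with the block, 1 and 2 without pairs 2 and 3, and 84 to 318 with 1 array left out. Fits that leave out arrays have fewer samples, and the cause of the other shifts was not tested. Robust priors, renewed quantile normalization and median centring kept all of these counts within 1.5 times. So did the fit of single probe sets, but its counts used only the probe set already chosen for each gene. They therefore do not show how the counts depend on that choice. In that fit, other probe sets of Sfrp1, Wnt6, Dkk1 and Wnt5a passed, as given above. Fzd2 and Lrp6, which were not called, changed sign in some fits. Fzd2 was 0.090 with means over probe sets and -0.165 to 0.024 with 1 array left out, positive without heterozygote 1. Lrp6 was 0.020 without pair 2 and -0.135 to 0.0015 with 1 array left out, positive without null 1.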
